A study of Mus musculus with 14 samples.

Results

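The 9 genes described here encode interferon regulatory factors (Irf1, Irf3, Irf7, Irf8 and Irf9), signal transducers and activators of transcription (Stat2 and Stat3) and suppressors of cytokine signalling (Socs1 and Socs3). They were chosen by gene symbol, with earlier results of these data known. Each matched 1 of the 54532 genes in the deposited tables of RNA counts from mouse tumours. The tumours grew from 4T1 cells, a mouse mammary carcinoma line used as a model of triple-negative breast cancer, after 1000000 cells had been placed under the skin of the mammary area. Intraperitoneal injections started at day 9, when tumours measured about 100 mm3, and were repeated every 6 days for 3 cycles; the tissue was collected 3 days after the last cycle. PBS, the vehicle, was given to the control group (4 libraries), and the alkylating drug cyclophosphamide (CTX) was given at 100 mg/kg (CTX100, 5 libraries) or at 140 mg/kg (CTX140, 5 libraries). All groups carried tumours of the same line, for which the labels name no genetic change. The labels state no strain, sex or age of the mice, and they do not state that every library is a different mouse; the p-values therefore refer to the variation among libraries, part of which may be technical.

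Interferons and cytokines of the IL-6 family bind receptors that carry JAK kinases, and the kinases phosphorylate STAT proteins, which then enter the nucleus. Type I interferon drives a complex of STAT proteins with IRF9, called ISGF3, onto interferon-stimulated response elements (ISRE), whereas STAT dimers bind gamma-activated sites (GAS). IRF3 and IRF7 sit upstream, where sensors of nucleic acids activate them to switch on interferon genes, and SOCS1 and SOCS3 are induced by STATs and shut the receptor complexes down. The tumours were sequenced whole, so host cells contributed RNA beside carcinoma cells, and fewer cells of a type and less RNA per cell cannot be told apart in these data.

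The promoters of 4 genes that were called higher after CTX held strings of letters like those of such elements. RefSeq promoter windows of GRCm38.p6, which run from 250 bases before to 50 bases after a transcript start, were found for all 9 genes and searched on both strands for an ISRE-like motif (GAAANNGAAA or its complement TTTCNNTTTC) and a GAS-like motif (TTCNNNGAA, which reads the same on both strands). Shown are the 250 bases before the start, 5′ to 3′ on the gene's strand, for the called genes that hold a motif, with the motifs in capitals.
Stat2 (chr10:128270248-128270497, plus strand): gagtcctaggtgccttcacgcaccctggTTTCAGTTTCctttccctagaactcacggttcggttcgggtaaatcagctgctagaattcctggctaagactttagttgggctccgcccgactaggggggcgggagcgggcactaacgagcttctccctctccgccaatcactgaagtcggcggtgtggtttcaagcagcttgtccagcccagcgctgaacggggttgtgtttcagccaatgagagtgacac
Socs1 (chr16:10785537-10785786, minus strand): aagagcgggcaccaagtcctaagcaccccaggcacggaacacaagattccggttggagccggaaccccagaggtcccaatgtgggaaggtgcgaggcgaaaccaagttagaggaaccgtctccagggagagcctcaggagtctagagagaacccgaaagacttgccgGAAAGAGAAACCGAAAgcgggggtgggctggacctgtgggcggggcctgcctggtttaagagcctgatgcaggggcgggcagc
Irf1 (chr11:53769764-53770013, plus strand): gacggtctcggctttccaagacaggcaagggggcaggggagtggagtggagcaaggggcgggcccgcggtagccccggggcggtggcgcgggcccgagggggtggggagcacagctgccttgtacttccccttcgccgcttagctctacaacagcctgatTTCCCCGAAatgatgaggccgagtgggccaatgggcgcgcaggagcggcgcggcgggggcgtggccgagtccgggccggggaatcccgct
Irf8 (chr8:120736108-120736357, plus strand): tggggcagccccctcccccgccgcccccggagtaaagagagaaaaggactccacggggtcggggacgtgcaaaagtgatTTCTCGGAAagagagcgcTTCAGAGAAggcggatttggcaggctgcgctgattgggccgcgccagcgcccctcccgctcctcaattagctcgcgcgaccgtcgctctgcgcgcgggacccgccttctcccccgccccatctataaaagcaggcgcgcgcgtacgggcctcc
Stat2 held 1 ISRE-like motif, 222 to 213 bases before the start, and Socs1 held 2 that overlap, between 83 and 68 bases before it. Irf1 held 1 GAS-like motif, 90 to 82 bases before the start, and Irf8 held 2, of which the nearer one begins 153 bases before the start. Of 32851 promoters of the same length, 3.44% held the ISRE-like motif and 8.3% the GAS-like motif. Socs3 also held a GAS-like motif, 154 to 146 bases before the start, and was not called. The windows of Irf3, Irf7, Irf9 and Stat3 contained neither string of letters. Nor did the further window found for each of Irf1, Irf8 and Irf9. Both windows of Irf9 lie inside its annotated span: the span starts at 55603571 and the first window at 55603735. The window of Socs3, on the minus strand, reaches 117969616 and also lies inside its span, which runs to 117970047. Bases before the annotated starts of Irf9 and Socs3 were not searched. A match describes letters only; no binding was measured.

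Depth was similar across groups. Library totals spanned 14.4 to 19.3 (in units of 1000000 counts), and the 9 genes averaged between 602.6 counts (Socs1) and 4901 counts (Irf7) per library, so all 9 passed the filter on low counts. Over the 15360 genes tested, edgeR's quasi-likelihood test with Benjamini-Hochberg adjustment called 245 genes at CTX100, 3268 at CTX140 and 192 between the doses at an adjusted p under 0.05. The CTX100 number moved between 17 (without PBS 3) and 686 (without PBS 2), the CTX140 number between 1975 and 3894, and the number between doses between 0 and 1007, when single libraries were left out. Host cell markers were present in every group: summed macrophage markers spanned 1319 to 2048 CPM (read counts scaled to a common total of 1000000 with TMM factors) for PBS, 794 to 1618 for CTX100 and 908 to 4386 for CTX140, and summed markers of T and NK cells 77.1 to 134.6, 84.7 to 147.6 and 131.3 to 624.9. Summed fibroblast markers were at 962 to 1523 CPM (PBS), 1541 to 2532 CPM (CTX100) and 2564 to 6908 CPM (CTX140), and markers of the carcinoma epithelium at 1445 to 2260, 1753 to 2127 and 1256 to 1943. At CTX140 edgeR called 1 of 10 tested macrophage markers higher, a share near the 11.1% of all tested genes called higher. It also called 6 of 11 T and NK cell markers, 6 of 9 fibroblast markers and 4 of 8 carcinoma markers higher. Krt8 and Krt18, with means of 911 and 738 CPM in PBS, made up most of the carcinoma sum (mean 1707 CPM) and were not called. The fibroblast markers not called were Fbln2, Pdgfrb and Pdgfra, at log2 fold changes of 0.44, -0.01 and -0.60 at CTX140. All 6 tested adipocyte markers were called higher. Their list summed to 0.439 to 10.6 CPM (PBS), 16.6 to 94.8 CPM (CTX100) and 44.4 to 341.5 CPM (CTX140). Summed keratinocyte markers were at 3.52 to 6.28 CPM in PBS and 8.40 to 22.2 CPM at CTX140. The part of cell composition in the results on the 9 genes was not tested. No marker of the 12 cell type lists was at 0 in all libraries. PBS 3 was the lowest PBS library for 8 of the 9 genes.

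Irf7 had the largest fold change of the 9 genes at either dose. Of the 9 genes, 1 was called at CTX100, where 1.60% of all tested genes were called, and 5 at CTX140, where 21.3% were called. All of these were higher than in PBS, a direction taken by 1.20% of all tested genes at CTX100 and by 11.1% at CTX140, where 10.1% were called lower. Between the doses edgeR called 0 of the 9, beside 1.25% of all genes; 3 had an unadjusted p under 0.05. DESeq2 called 1 of the 9 between the doses, beside 6.96% of all genes, and limma called 0, beside 0.866%. At CTX100 DESeq2 called 2 of the 9 (5.20% of all genes), and at CTX140 DESeq2 and limma called 5 each (20.4 and 18.9% of all genes). The median log2 fold change of the 9 genes was 0.37 at CTX100 and 0.46 at CTX140, against -0.01 and 0.02 over all tested genes. CTX100 and CTX140 were compared with the same PBS libraries, so the 2 comparisons are not independent.

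**Figure D1:**
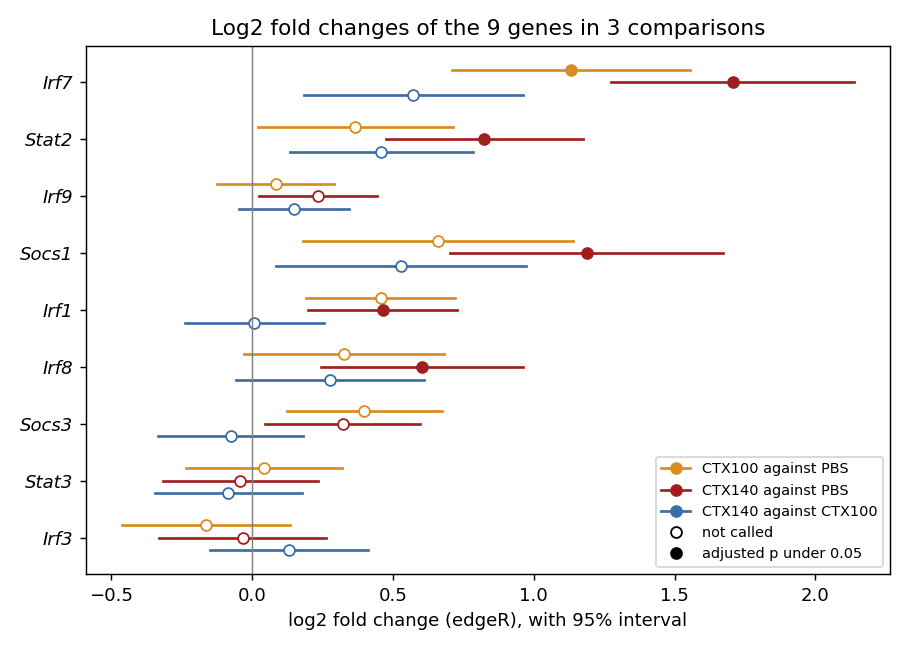
Log2 fold changes of the 9 genes with 95% intervals from the edgeR fit in the 3 comparisons; filled points passed an adjusted p of 0.05. Irf7 lies farthest to the right in both comparisons with PBS, and the intervals of Stat3 and Irf3 include 0 in every comparison.

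Irf7, the interferon-inducible factor that amplifies type I interferon production, rose at both doses. The gene lies on the minus strand of chromosome 7, 141262706 to 141266481 on mm10. In PBS 1 to 4 it was at 187, 152, 88.3 and 97.5 CPM. In CTX100 1 to 5 it was at 305, 252, 258, 265 and 361 CPM, and in CTX140 1 to 5 at 380, 475, 392, 388 and 508 CPM. The 3 groups did not overlap: the lowest CTX100 library lay above the highest PBS library, and the lowest CTX140 library above the highest CTX100 library. Such a separation upwards was found for 5.17% of all tested genes at CTX100 against PBS, 7.34% at CTX140 against PBS and 2.33% between the doses; of the 9 genes it was found for 2, 4 and 2. The log2 fold change against PBS was 1.13 ± 0.20 (SE) at CTX100, with an edgeR adjusted p of 0.0172, and 1.71 ± 0.20 at CTX140, with an edgeR adjusted p of 0.000108. That corresponds to 2.19-fold (95% interval 1.64 to 2.94) and 3.26-fold (2.42 to 4.40). The CTX100 call was lost without PBS 3 (log2 fold change 0.98, edgeR adjusted p = 0.0656) and without PBS 4 (1.00, adjusted p = 0.0691), while the CTX140 call held without any single library. From CTX100 to CTX140 the log2 difference was 0.57 ± 0.18 and missed the threshold (edgeR adjusted p = 0.0944). DESeq2 called that difference (adjusted p = 0.0448), as did edgeR fitted to only these 2 groups (adjusted p = 0.0499), a fit that called 1.39% of all genes. Irf7 shares 45 exon bases with Phrf1 on the opposite strand, whose reads cannot be separated there without strand information; Phrf1 averaged 869.9 counts per library.

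Stat2 and Irf9 encode the ISGF3 subunits among the 9 genes, and only Stat2 was called. Stat2 was at 88.4, 91.3, 52.1 and 93.1 CPM in PBS 1 to 4, at 114, 86.4, 85.4, 113 and 124 CPM in CTX100 1 to 5, and at 138, 135, 159, 129 and 157 CPM in CTX140 1 to 5. Every CTX140 library lay above every PBS and every CTX100 library, whereas CTX100 overlapped PBS. The log2 fold change was 0.82 ± 0.17 at CTX140 (edgeR adjusted p = 0.00305) and 0.37 ± 0.16 at CTX100 (adjusted p = 0.253). Between the doses it was 0.46 ± 0.15 (edgeR adjusted p = 0.105). Without PBS 3, whose value stood below the other PBS libraries, the CTX140 log2 fold change was the lowest of the alternatives at 0.66 and remained called. Irf9, which gives ISGF3 its DNA binding, ranged from 77.3 to 92.7 CPM in PBS; CTX100 libraries lay between 84.4 and 94.5 CPM and CTX140 libraries between 90.7 and 115.6 CPM, and the groups overlapped. Its log2 difference from PBS was 0.23 ± 0.10 at CTX140 (edgeR adjusted p = 0.0998) and 0.08 ± 0.10 at CTX100 (adjusted p = 0.704). The 95% interval at CTX140 ran from 1.02 to 1.36-fold. Irf9 shares 123 exon bases with Rnf31 on the same strand.

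Socs1, the inhibitor that binds JAK kinases after interferon signalling, rose at the higher dose. It was at 22.7, 24.9, 12.8 and 26.8 CPM in PBS 1 to 4, at 39.0, 24.8, 32.6, 32.3 and 43.8 CPM in CTX100 1 to 5, and at 65.2, 48.3, 57.4, 44.2 and 33.3 CPM in CTX140 1 to 5. All CTX140 libraries exceeded all PBS libraries, and CTX100 2 was the only CTX100 library inside the PBS range. The log2 fold change was 1.19 ± 0.23 at CTX140 (edgeR adjusted p = 0.00242), or 2.28-fold (95% interval 1.63 to 3.19). At CTX100 it was 0.66 ± 0.23 and was not called (edgeR adjusted p = 0.137), and between the doses 0.53 ± 0.21 (adjusted p = 0.155). Socs3, the inhibitor that binds receptors of the IL-6 family, was not called in any comparison. It ranged from 132 to 153 CPM in PBS, and from 166.0 to 231 CPM in CTX100 and 151 to 209 CPM in CTX140. CTX100 did not overlap PBS, yet the log2 difference of 0.40 ± 0.13 did not pass (edgeR adjusted p = 0.121). At CTX140 it was 0.32 ± 0.13 (edgeR adjusted p = 0.0863).

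**Figure D2:**
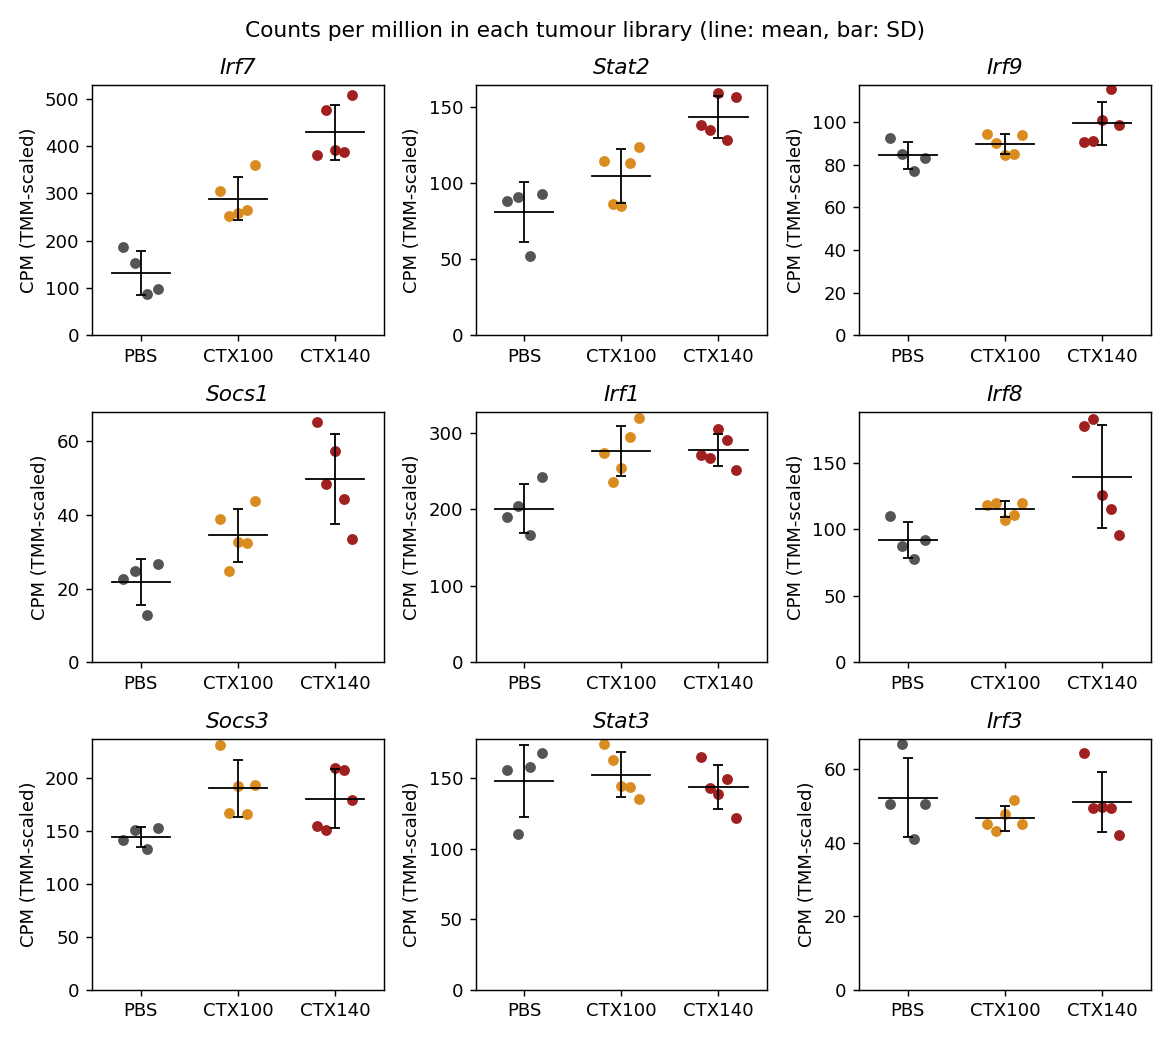
CPM of each of the 9 genes in the 14 libraries, with a point per library, a line at the group mean and a bar of 1 SD. Irf7 separates the 3 groups without overlap, Stat2 separates CTX140 from the other groups, and Stat3 and Irf3 overlap throughout.

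Irf1, a factor induced by interferon gamma and needed for many of its targets, was at similar levels after both doses. It was at 190, 205, 166 and 243 CPM in PBS 1 to 4, at 274, 237, 254, 295 and 320 CPM in CTX100 1 to 5, and at 271, 267, 305, 290 and 252 CPM in CTX140 1 to 5. CTX140 did not overlap PBS, and CTX100 2 alone among the CTX100 libraries lay below the highest PBS library. The log2 fold change was 0.46 ± 0.12 at either dose, with an edgeR adjusted p of 0.0162 at CTX140 and of 0.0727 at CTX100. DESeq2 called Irf1 at CTX100 (adjusted p = 0.0155), and without PBS 3 the CTX140 call was lost (log2 fold change 0.38, edgeR adjusted p = 0.0617). The doses differed by 0.01 on the log2 scale, with a 95% interval of the fold from 0.847 to 1.19. Irf1 shares 135 exon bases with Gm17334 on the opposite strand, which averaged 7.93 counts per library.

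Irf8, a factor of monocytes, macrophages and dendritic cells, rose at CTX140 with a wide spread within that group. It was at 110, 87.6, 77.5 and 91.7 CPM in PBS 1 to 4, at 118, 119, 107, 111 and 120 CPM in CTX100 1 to 5, and at 177, 183, 126, 115 and 95.7 CPM in CTX140 1 to 5. CTX140 1 and 2 stood above the rest, and CTX140 5 lay inside the PBS range. The log2 fold change at CTX140 was 0.60 ± 0.17 (edgeR adjusted p = 0.0196). The call was lost without PBS 3 (edgeR adjusted p = 0.0713), without PBS 4 (adjusted p = 0.0545) and with only these 2 groups fitted (adjusted p = 0.0689). Summed macrophage markers in CTX140 1 to 5 were 2160, 4386, 1752, 908 and 1013 CPM, and summed T and NK cell markers were 625, 292, 171, 173 and 131 CPM. For both marker lists the 2 libraries with the highest Irf8 were also the highest of the group. That order was not particular to these lists. The same 2 libraries were highest for adipocyte (341.5 and 185.5 CPM), blood endothelium (256 and 170.5 CPM) and keratinocyte markers (22.2 and 12.1 CPM). They were also highest for both dendritic cell lists. Neutrophil, fibroblast, B cell, carcinoma and skeletal muscle markers did not follow that order. Summed markers of type 1 conventional dendritic cells spanned 142 to 182 CPM in PBS and 157 to 203 CPM in CTX140, and those of plasmacytoid dendritic cells 36.8 to 46.0 and 34.8 to 92.7 CPM, with CTX140 1 the highest for each. The part of these cells in the Irf8 result was not tested. At CTX100 the log2 difference was 0.33 ± 0.17 (edgeR adjusted p = 0.321).

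Stat3, which carries signals of the IL-6 family, and Irf3, the factor that nucleic acid sensors activate without new synthesis, were not called. Stat3 lay between 111 and 168 CPM in PBS, between 136 and 175 CPM in CTX100 and between 122 and 165 CPM in CTX140. Its log2 difference from PBS was 0.04 ± 0.13 at CTX100 and -0.04 ± 0.13 at CTX140 (edgeR adjusted p = 0.904 and 0.844), and the 95% interval at CTX140 ran from 0.803 to 1.18-fold. Irf3 was between 41.0 and 66.8 CPM in PBS, between 43.2 and 51.6 CPM in CTX100 and between 42.0 and 64.3 CPM in CTX140. Its log2 difference was -0.16 ± 0.14 at CTX100 and -0.03 ± 0.14 at CTX140 (edgeR adjusted p = 0.581 and 0.885), with a 95% interval at CTX140 of 0.795 to 1.20-fold. A difference of 1.5-fold or more lay outside the intervals of both genes at CTX140. The signs of the Stat3 differences, and of Irf3 at CTX140, changed with single libraries. Stat3 shares 72 exon bases with Stat5a, and Irf3 88 with Bcl2l12, each on the opposite strand.

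Levels were compared between genes in FPKM, which divides the reads by gene length. In PBS, Irf1 (50.4 FPKM) and Socs3 (49.7 FPKM) were highest and did not differ beyond their spread, followed by Irf7 at 34.7 ± 12.3 FPKM (SD, n = 4). Irf9, Stat3, Irf3, Stat2 and Irf8 lay between 13.0 and 15.6 FPKM in PBS and overlapped one another, and Socs1 was lowest at 7.46 ± 2.11 FPKM. At CTX100, Irf7 reached 75.9 ± 12.2 FPKM (n = 5) and overlapped Irf1 at 69.0 and Socs3 at 65.3 FPKM. At CTX140, Irf7 stood first at 113 ± 16.0 FPKM, with every library above every Irf1 value of the group (mean 69.6 FPKM). Socs3 followed at 62.2 and Stat2 came next at 24.2 ± 2.37 FPKM. Irf8, Irf9, Socs1, Stat3 and Irf3 lay between 14.8 and 19.7 FPKM at CTX140, and no neighbours among them were separate.

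Among the 5 IRF genes described, Irf7 made up a larger share of the transcripts after CTX. Its share of their summed FPKM was 26.5 ± 6.4% in PBS (SD, n = 4), 39.6 ± 2.3% in CTX100 and 47.9 ± 5.0% in CTX140 (n = 5 each). The shares of the 3 groups did not overlap, and spanned 19.9 to 34.2% (PBS), 36.8 to 42.8% (CTX100) and 43.8 to 55.6% (CTX140). Irf1 had mean shares of 39.4, 36.1 and 29.6% over the same groups, and Irf3 of 11.7, 7.10 and 6.29%. The summed FPKM of the 5 genes was also higher, with means of 129 FPKM for PBS, 191 for CTX100 and 236 for CTX140, and the groups did not overlap. These shares restate the levels above and were not tested.

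**Figure D3:**
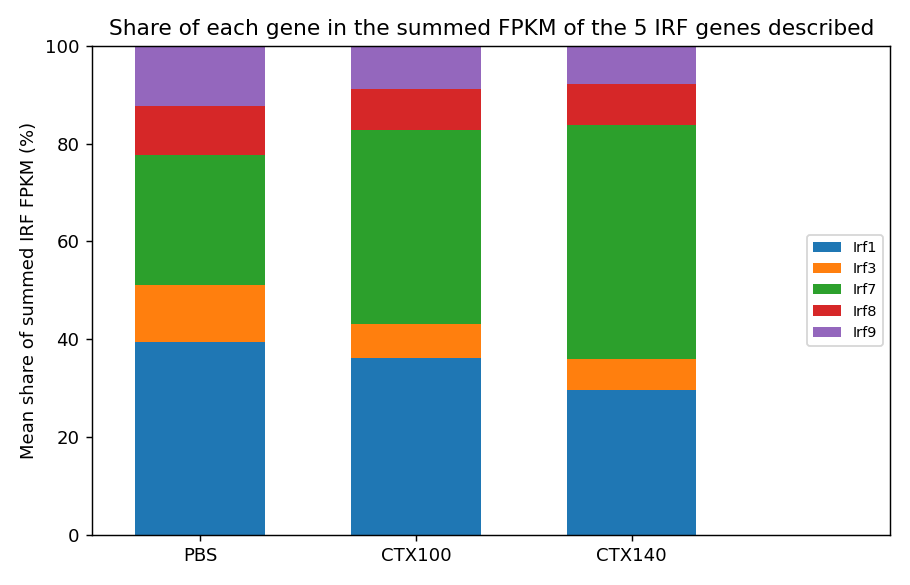
Mean share, in percent, of Irf1, Irf3, Irf7, Irf8 and Irf9 in their summed FPKM, as stacked bars for PBS, CTX100 and CTX140. The Irf7 segment is 26.5% for PBS, 39.6% for CTX100 and 47.9% for CTX140.

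The other genes of the pathway were counted by their role, in 13 lists chosen with earlier results of these data known. The shares called therefore describe the lists and are no independent test. Of the 102 tested genes in the 13 pathway lists edgeR called 12 at CTX100 (11.8%, beside 1.60% of all tested genes), 45 at CTX140 (44.1%, beside 21.3%) and 2 between the doses (1.96%, beside 1.25%). The last share is near that of all genes. Without PBS 3 or without PBS 4 the CTX100 number was 1, and between the doses it ranged from 0 to 11 without single libraries. Of the 14 ISGF3 targets, 8 were called higher at CTX100 and all 14 at CTX140, with a median log2 fold change of 1.01 and 1.55, beside 1.20 and 11.1% of all tested genes called higher. Ifit3, which encodes an antiviral protein and may share reads with a near-copy, rose by 1.20 at CTX100 and 2.04 at CTX140 on the log2 scale (edgeR adjusted p = 0.0164 and 4.01e-05). Ifit2 and Ifit3 were the 2 genes of all lists called between the doses (edgeR adjusted p = 0.0408 for each).

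Targets of interferon gamma and of STAT3 also held called genes. With the same shares of all genes as background, 1 of 14 interferon gamma targets was called at CTX100 (Cxcl10, log2 fold change 1.17) and 8 at CTX140, all higher; Igtp, a GTPase that acts on pathogen vacuoles, rose by 1.06 at CTX140. Of 12 STAT3 targets, 2 were called at CTX100 (Pim1 and Il1rn), and 6 higher and 1 lower (Bcl6) at CTX140. Il1rn, which encodes the IL-1 receptor antagonist, rose by 1.55 and the protease inhibitor gene Timp1 by 0.90 on the log2 scale at CTX140.

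Ligands and feedback genes also included called members, at CTX140 beside 21.3% of all tested genes called in either direction. Of the 9 tested ligands of the gp130 and IL-10 families, 1 was called at CTX100, beside 1.60% of all tested genes. This was Osm (log2 fold change 0.94, edgeR adjusted p = 0.0478). At CTX140 Osm, Il6, Il27 and Csf3 were called higher, by 1.59, 1.70, 1.47 and 1.70 on the log2 scale. Ctf1 was called lower, at -0.76. PBS and CTX140 overlapped for Il6 (1.3 to 3.4 and 2.5 to 11.7 CPM) and for Il27 (0.28 to 0.78 and 0.59 to 2.85 CPM). They also overlapped for Ctf1 (6.5 to 12.6 and 4.4 to 6.6 CPM), but not for Osm (4.7 to 8.5 and 13.8 to 24.8 CPM). Il27 had only 197 counts over all 14 libraries. Csf3, which encodes the neutrophil growth factor G-CSF, was at 59.3 to 94.8 CPM in PBS and 73.5 to 510 CPM at CTX140 (263 ± 208 CPM, SD, n = 5), so the groups overlapped and the spread at CTX140 was wide. Among the 6 other SOCS genes, Cish (1.42) and Socs2 (0.91), both feedback inhibitors of STAT5 signalling, were called higher at CTX140. Socs5 (-0.57) and Socs6 (-0.48) were called lower, and the median log2 fold change of the 6 was -0.19. Of the 9 other inhibitors, Usp18, which blocks the type I interferon receptor, was called higher (1.60, edgeR adjusted p = 0.000809). Pias2 was called lower (-0.31). The share called among these inhibitors was near that of all genes, and their median log2 fold change was -0.04.

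Kinases, receptors and upstream adaptors were counted at CTX140, where 21.3% of all tested genes were called. Of the 4 JAK kinases, Jak2 was called, at a log2 fold change of -0.31 (edgeR adjusted p = 0.0375). Of the 5 tested interferon receptor chains edgeR called 0, with 0 at an unadjusted p under 0.05 and 0 by DESeq2 or limma. Of the 8 receptor chains for gp130 and IL-10 cytokines, Il11ra1 was called higher (0.92) and Il6ra lower (-0.82), a share near that of all genes, as was the 1 of 4 kinases. Of the 11 activators of IRF3 and IRF7, Myd88, an adaptor of Toll-like receptors, was called (0.30, edgeR adjusted p = 0.0274). Of the 5 other STAT genes edgeR called 0, with 3 at an unadjusted p under 0.05, 1 by DESeq2 and 0 by limma.

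Interferon genes themselves were scarce. Of 20 interferon genes in the table, 9 had 0 counts in every library and only Ifng, which encodes interferon gamma, passed the filter. Ifng was at 0.542 to 2.60 CPM (PBS), 0.751 to 5.07 CPM (CTX100) and 2.30 to 5.87 CPM (CTX140), and its log2 difference of 1.51 at CTX140 did not pass (edgeR adjusted p = 0.0601). Ifnb1, which encodes interferon beta, had 106 counts over all 14 libraries and lay between 0.120 and 1.18 CPM at CTX140, against 0.280 to 0.956 CPM in PBS. At this depth a difference in Ifnb1 was not tested.

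**Figure D4:**
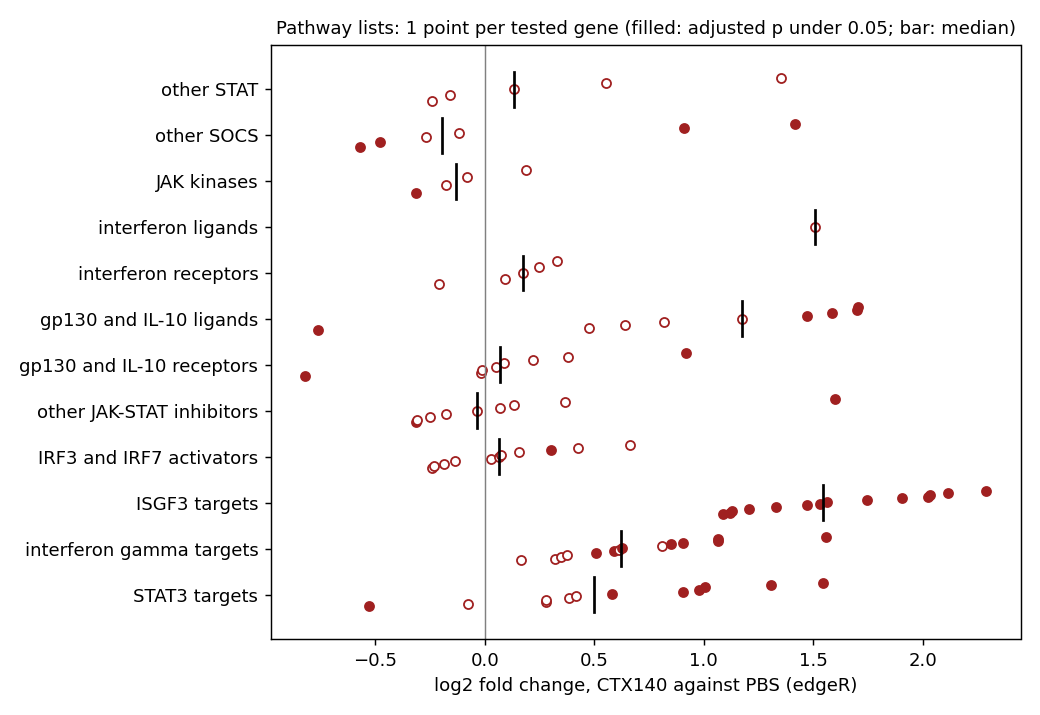
Log2 fold change at CTX140 against PBS of each tested gene in 12 of the pathway lists, with filled points at an adjusted p under 0.05 and a bar at the median of each list. All 14 ISGF3 targets are filled and lie to the right of 0. JAK kinases run from -0.31 (Jak2, the only filled point of that list) to 0.19 (Tyk2). Interferon receptors run from -0.21 (Ifnar1) to 0.33 (Ifngr1), with no filled point.

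The genes whose pattern over the 14 libraries was most like that of each member were found by Pearson's r of log2 CPM, as a description in which the groups, library and depth are shared. For Irf7 these were Ifit3 (r = 0.98), Zbp1 (0.98) and Oas1a (0.98), and for Stat2 they were Oas2 (0.94), Parp14 (0.92) and Oasl2 (0.91). Taken as deviations from group means, r for Irf7 was still 0.86, 0.86 and 0.89. For Irf1 the nearest were Cars2 (0.91), Ido1 (0.88) and Irgm2 (0.87), and for Irf8 Panx1 (0.97), Slco3a1 (0.97) and Ubd (0.96). Socs1 was nearest to Gxylt2 (0.93), Ccdc184 (0.93) and Them6 (0.93), and Socs3 to Tinf2 (0.88), Junb (0.86) and Has1 (0.86). Irf9 was nearest to Angptl4, Cebpd and Exog, Stat3 to Mfn2, D17Wsu92e and Map4, and Irf3 to Arrdc1, Sh2b1 and Mvd. For these r lay between 0.86 and 0.91. Only Irf7 and Stat2 had genes of the ISGF3 target list among their nearest genes.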

How the data were processed

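Bulk tumour RNA was measured in 14 libraries, grouped by their treatment labels. The deposited counts are whole reads per Ensembl gene and were not normalized by the authors. The deposited FPKM values were made by the authors and are, within each of the 14 libraries, proportional to counts divided by gene length. Per the submitters' processing notes the genome build was mm10 and DESeq2 was among the tools. Which aligner and counter were run, and whether strand was used, is not given in the sources used here. Counts were fitted in R 4.3.3 with edgeR 4.0.16 (normalization by TMM, filterByExpr by group, robust quasi-likelihood test, two-sided, 1 mean per group, no covariate), and p-values were adjusted by Benjamini-Hochberg over all 15360 tested genes. Calls were made at an adjusted p under 0.05. CPM use TMM-scaled totals. DESeq2 1.42.0, limma 3.58.1 on log2(FPKM + 1), other scalings and filters, a replicate block and leaving out each library were alternatives. The test was also run on simulated counts with planted fold changes, and the outcome is not reported here. Those counts carried no shifts in cell composition. The 9 genes, the 13 pathway lists and the 12 marker lists were chosen with earlier results of these data known. Named are all 9 genes and the genes of the factor, ligand, receptor, kinase and inhibitor lists. Also named are up to 3 genes with the smallest p at CTX140 from each other list, and the 3 genes most like each of the 9. Pim1, Bcl6, Krt8, Krt18, Fbln2, Pdgfrb, Pdgfra and the genes overlapping the 9 fall outside this and were chosen after their values were seen. The list of further IRF genes enters the totals over the 13 lists and is otherwise not reported here.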

Additional observations from a re-analysis of the deposited data

Results flagged for a closer look

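Stat2 in PBS 3 was at 52.06 CPM, while the other PBS libraries lay between 88.4 and 93.1 CPM. The gap was larger than a test for a single outlying value allows in a group of 4. The test was made in 27 groups (9 genes in 3 groups), and chance alone gives about 1 such result in 20 groups. Without PBS 3 the log2 fold change of Stat2 at CTX140 was 0.66 and it was still called (edgeR adjusted p = 0.00789).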

How the results depend on the processing

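The calls of Irf7, Stat2 and Socs1 at CTX140 held under all 23 alternatives run. In all genes, DESeq2 called 821 at CTX100 and 1262 between the doses, limma on log2(FPKM + 1) called 148 at CTX100, and edgeR fitted to only the groups compared called 529 at CTX100 and 1878 at CTX140. Of the 9 genes, DESeq2 called 2 at CTX100 and 1 between the doses, and the fit to only the groups compared called 1 between the doses. Over the pathway lists, DESeq2 called 22 at CTX100 and 16 between the doses, the fit to only the groups compared 21 at CTX100, and between the doses no filter on low counts gave 4 and limma 0. The causes were not tested. Without single libraries the number of genes called was 17 to 686 at CTX100, 1975 to 3894 at CTX140 and 0 to 1007 between the doses. The 9 genes then had 0 to 1 calls at CTX100 and 3 to 5 at CTX140, and the pathway lists 1 to 17 at CTX100 and 0 to 11 between the doses. The log2 differences that changed sign were near 0: without single libraries Stat3 ranged from -0.075 to 0.099 at CTX100 and from -0.16 to 0.014 at CTX140, Irf3 from -0.14 to 0.10 at CTX140, and between the doses Irf1 from -0.045 to 0.067 and Socs3 from -0.13 to 0.0055. With no filter on low counts Irf1 differed by -0.014 between the doses.

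With the replicate number as a block (replicate block), 293 genes and 4 genes of the pathway lists were called between the doses, and the log2 differences of Irf3 and Stat3 at CTX140 were 0.0074 and 0.0086. It called 1, 5 and 0 of the 9 genes in the 3 comparisons. The labels do not state that equal numbers pair the libraries. Deviations from group means had r over 0.1 in 6 of 13 same-numbered pairs (-0.193 to 0.431), and 4 of 14 libraries were nearest to their own number. No reference for unpaired numbers was computed, so these values do not settle whether the numbers pair.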
